A study of Mus musculus with 2 samples.

Results

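The miR-23, miR-27 and miR-24 hairpins lie in 2 paralogous clusters of the mouse genome, and small RNA sequencing measured them here in the newborn forebrain. The members were taken by gene symbol: Mir23b, Mir27b and Mir3074-1 of the 23b cluster, and Mir23a, Mir27a and Mir24-2 of the 23a cluster. These are 6 of the 1973 microRNA genes in the count tables, and all 6 were found. Mir3074-1 stands for the locus of Mir24-1, since the annotation places both on the same stretch of chromosome 13 on opposite strands. Mir24-1 itself and Mir3074-2, the counterpart of Mir3074-1 opposite Mir24-2, have no entry under their identifiers in the count data. They were therefore not analysed here as genes of their own.

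The samples are whole forebrains of 2 newborn mice of strain B6NCrl at postnatal day 0, pup 3 and pup 1, with no treatment or genetic change named in the labels. They form a single group of 2 biological replicates, and there is no contrast between conditions to test. The labels give the same donor record for both pups and no sex. Each forebrain is a mixture of neurons, glia, vessels and blood, in which fewer cells of a type and less RNA per cell cannot be told apart.

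A microRNA is cut from a hairpin transcript as a short RNA and pairs with messenger RNAs mainly through its seed, bases 2 to 8 from its 5′ end. Hairpins of a cluster are usually transcribed together and then processed one by one. The miR-23, miR-27 and miR-24 clusters are best known in mice from endothelial cells and the growth of blood vessels. In human cells miR-23 is known to repress glutaminase, the enzyme that feeds glutamine into metabolism, and miR-24 is known to repress genes of the cell cycle. In mouse preadipocytes miR-27 is known to hold back fat cell differentiation.

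The mature sequences show why the clusters are called paralogous, and which reads can be told apart. They are RefSeq sequences on GRCm38.p6, written 5′ to 3′ with the seed in capitals, and the 3′ arm of each family is given first.
Mir23b hairpin, 21-base stretch: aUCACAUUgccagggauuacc
miR-23a-3p: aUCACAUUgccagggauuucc
miR-27b-3p: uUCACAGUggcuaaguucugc
miR-27a-3p: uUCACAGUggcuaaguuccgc
miR-24-3p, of Mir24-1 and of Mir24-2: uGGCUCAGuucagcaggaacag
miR-3074-5p, of Mir3074-1: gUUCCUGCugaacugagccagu

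The paralogs of each family have the same 3′ seed, UCACAUU for miR-23, UCACAGU for miR-27 and GGCUCAG for miR-24. Against miR-23a-3p, the Mir23b stretch was identical in 20 of 21 bases, with the substitution U19A counted from the 5′ end of miR-23a-3p. In the miR-27 family the 3′ products were also identical in 20 of 21 bases, with C19U from miR-27a-3p to miR-27b-3p. The 22 bases of miR-24-3p were the same at both loci. MiR-3074-5p is the product of the opposite strand, and its 22 bases also occur at both loci.

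The 5′ arms were less alike, and they distinguish the paralogs within each family. They are shown because they carry the bases that belong to a single locus.
miR-23b-5p: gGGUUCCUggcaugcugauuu
miR-23a-5p: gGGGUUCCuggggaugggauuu
miR-27b-5p: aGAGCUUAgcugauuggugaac
miR-27a-5p: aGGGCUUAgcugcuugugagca
miR-24-1-5p: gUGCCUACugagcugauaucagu
miR-24-2-5p: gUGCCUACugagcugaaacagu

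In the best alignment without gaps, miR-23a-5p and miR-23b-5p shared 15 of 21 bases, and miR-27a-5p and miR-27b-5p shared 14 of 22. MiR-24-2-5p and miR-24-1-5p shared 17 of 22 bases and the same seed. Among the 1005 hairpins of the RefSeq table, miR-23a-3p, miR-27b-3p and miR-27a-3p each matched exactly in 1 hairpin. MiR-24-3p matched exactly in Mir24-1 and Mir24-2 and, on the opposite strand, in Mir3074-1 and Mir3074-2. The longest stretch that Mir23b shared with Mir23a was 20 bases, and that of Mir27b with Mir27a was also 20 bases. Mir24-2 shared 30 bases with the opposite strand of Mir3074-1. The tables do not assign reads that map to several places, and the exact sequence of miR-24-3p occurs at more than 1 locus. How many of the reads tallied as mapping to several places, 8171236 in pup 3 and 9673667 in pup 1, came from these hairpins was not tested.

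The seed of miR-27 also touches that of a microRNA known for its abundance in brain neurons. Bases 3 to 9 of miR-27b-3p and miR-27a-3p, CACAGUG, are the seed of miR-128-3p, which is shown for that overlap.
miR-128-3p: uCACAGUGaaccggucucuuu

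The Mir27b and Mir27a hairpins together stood at 706 CPM in pup 3 and 1174 CPM in pup 1, where CPM is the count per 1000000 reads assigned to microRNA genes. The Mir128-1 and Mir128-2 hairpins together stood at 9743 CPM in pup 3 and 7643 CPM in pup 1. The miR-27 hairpins were therefore at 0.0725 of the miR-128 hairpins in pup 3 and at 0.154 in pup 1. With each level divided by hairpin length, these ratios were 0.0701 and 0.149. Both CPM are sums over arms, so they are not levels of the seed-bearing products themselves.

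The 23a cluster lies on the plus strand of chromosome 8, with Mir23a from 84208518 to 84208592, Mir27a from 84208672 to 84208758 and Mir24-2 from 84208815 to 84208921 (GRCm38, GENCODE M21). No protein-coding gene contains it, and the nearest is Zswim4, 2086 bases from Mir23a. Mir24-2 overlaps in part an exon of the long noncoding RNA Gm26532. The whole cluster spans 404 bases, with 79 bases between Mir23a and Mir27a and 56 between Mir27a and Mir24-2.

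The 23b cluster spans 800 bases of chromosome 13, with 154 bases between Mir23b and Mir27b and 414 between Mir27b and Mir3074-1. Mir23b lies from 63300484 to 63300557 and Mir27b from 63300712 to 63300784, both on the plus strand. Mir3074-1 lies on the minus strand from 63301199 to 63301283, and the 68 bases of the Mir24-1 hairpin on the plus strand lie wholly inside it. All 3 are within the plus-strand protein-coding gene 2010111I01Rik and, on the other strand, within introns of Fancc, a gene of the Fanconi anaemia repair pathway. Mir23b is intronic in 2010111I01Rik. Mir27b falls in an untranslated exon of a transcript of that gene marked for nonsense-mediated decay, and the Mir3074-1 locus overlaps exons of several of its transcripts, untranslated where the transcript has a coding frame. The identifiers of these 3 hairpins carry another version number in the tables than in GENCODE M21, so their coordinates and strand in the annotation the authors used may differ from those given here.

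The libraries were similar in depth. For pup 3, 7678662 of 18798326 reads were counted at microRNA genes (40.8%), and for pup 1, 9037087 of 22470992 (40.2%). Reads mapping to several places made up 43.5% of the pup 3 library and 43.0% of the pup 1 library. A list of 11 neuronal hairpins summed to 48425 CPM in pup 3 and 37939 CPM in pup 1, of which Mir137 alone held 33595 and 24345 CPM. Hairpins of the Hox clusters, which mark tissue behind the forebrain, summed to 148 and 195.7 CPM. Single hairpins overlapped in level, with Mir218-1 of the neuronal list at 15.9 and 16.2 CPM and Mir10b of the Hox list at 94.3 and 96.2 CPM. Outside the neuronal list, Mir124a-1, Mir124a-2 and Mir124a-3 had 113, 6 and 20 counts in pup 3 and 45, 20 and 20 in pup 1. Reads that map to several places are left out of these counts, so they do not give the level of miR-124 in the tissue. The labels name no molecular identifiers, and every interval below covers counting error only.

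All 6 hairpins were detected in both pups, and the miR-23 hairpins held most of the reads. Together the 6 took a share of 1.10% in pup 3 and 1.36% in pup 1 of the reads at microRNA genes (mean 1.23% ± 0.185, SD, n = 2). Mir23b and Mir23a supplied 92.1% of the members' reads in pup 3 and 90.0% in pup 1. Mir27b and Mir27a supplied 6.43% and 8.63%, and Mir3074-1 with Mir24-2 supplied 1.43% and 1.32% in the same pups.

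Mir23b, the most abundant of the 6, was counted 48044 times in pup 3 and 61399 times in pup 1. This is 6257 CPM in pup 3 (95% Wilson interval 6201 to 6313) and 6794 CPM in pup 1 (6741 to 6848), with a mean of 6525 ± 380 CPM (SD, n = 2). It ranked number 32 of the 1973 genes in pup 3 and number 30 in pup 1.

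Mir23a, its paralog, was counted 29661 times in pup 3 and 49306 times in pup 1. Its level was 3863 CPM (3819 to 3907) in pup 3 and 5456 CPM (5408 to 5504) in pup 1, with a mean of 4659 ± 1127 CPM (SD, n = 2). Its rank was 49 in pup 3 and 40 in pup 1, and its highest pup lay below the lowest pup of Mir23b.

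Mir27b, which lies next to Mir23b, was counted 4871 times in pup 3 and 9409 times in pup 1. Its level was 634 CPM (617 to 652) in pup 3 and 1041 CPM (1020.3 to 1062) in pup 1, a mean of 838 ± 288 CPM (SD, n = 2). Mir27a, in the same place of the 23a cluster, was counted 552 times in pup 3 and 1205 times in pup 1. Its level was 71.9 CPM (66.1 to 78.1) in pup 3 and 133 CPM (126 to 141) in pup 1, a mean of 103 ± 43.5 CPM (SD, n = 2). Both miR-27 hairpins were lower in CPM in pup 3, and the ranges of the paralogs did not overlap.

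The miR-24 loci had the fewest assigned reads of each cluster on the mean of the pups. Reads that map to several places are left out of these counts, and the exact sequence of miR-24-3p occurs at both loci. Mir24-2 was counted 655 times in pup 3 and 995 times in pup 1, which is 85.3 CPM (79.0 to 92.1) and 110.1 CPM (103 to 117), with a mean of 97.7 ± 17.5 CPM (SD, n = 2). Mir3074-1 was counted 554 times in pup 3 and 629 times in pup 1, which is 72.1 CPM (66.4 to 78.4) and 69.6 CPM (64.4 to 75.3), with a mean of 70.9 ± 1.80 CPM (SD, n = 2). Mir3074-1 was the only member with a higher CPM in pup 3 than in pup 1, and its counting intervals overlapped.

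**Figure D1:**
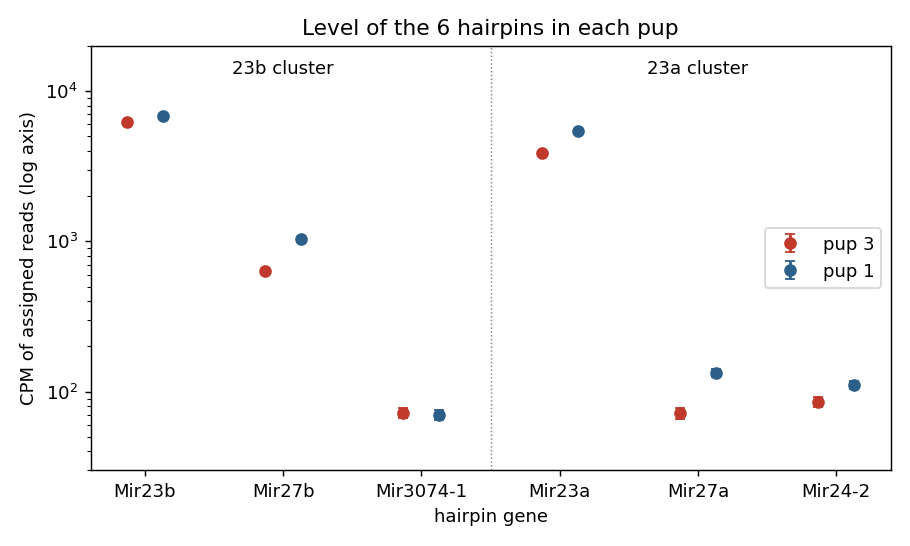
Level of each hairpin in CPM of assigned reads on a log axis, with pup 3 in red and pup 1 in blue, and 95% Wilson intervals for counting error. In each cluster the miR-23 hairpin stands highest, at 6257 and 6794 CPM for Mir23b and at 3863 and 5456 CPM for Mir23a in pup 3 and pup 1, and the miR-24 loci lie near 100 CPM or below in both.

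By mean CPM the order was Mir23b, Mir23a, Mir27b, Mir27a, Mir24-2 and Mir3074-1. Of the 5 neighbouring pairs in this order, 4 had ranges over the pups that did not overlap. The exception was Mir27a and Mir24-2, where Mir27a was above Mir24-2 in pup 1 and below it in pup 3. In pup 3 alone Mir27a was the lowest of the 6. With CPM divided by hairpin length, Mir23b stood at 8455 in pup 3 and 9181 in pup 1 per 100 bases, Mir23a at 5150 and 7275, and Mir27b at 869 and 1426. The other hairpins lay between 79.7 and 84.9 per 100 bases in pup 3 and between 81.9 and 153 in pup 1. The top 3 places were therefore the same per hairpin and per hairpin length, and the lower 3 were not separated in pup 3 once length was taken into account. With 2 samples no exact permutation test of a difference in level can reach 0.05, since a two-sided sign-flip test over the pups has a smallest p of 0.5.

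Genes at nearly the same level in both pups were looked up for each hairpin, by the larger of the absolute log2 differences in CPM over the 2 samples. The closest to Mir23a was Mir204, a microRNA of the choroid plexus, at 3824 CPM in pup 3 and 5253 CPM in pup 1 (larger difference 0.05), followed by Mir744 (0.12). The closest to Mir23b were Mir106b (0.15) and Mir411 (0.19). For Mir27b they were Mir337 (0.21) and Mir676 (0.25), and for Mir27a Mir135a-2 (0.20) and Mir505 (0.22). Mir24-2 was closest to Mir212 (0.03), a microRNA regulated by neuronal activity, and to Mir505 (0.06), and Mir3074-1 to Mir34a (0.04) and Mir377 (0.15). With 2 samples this is likeness of level and not of a pattern across conditions.

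The 23b cluster had more reads than the 23a cluster in both pups, and the excess differed greatly by family. Within a library the ratio of the clusters' counts was 1.73 in pup 3 (95% exact binomial interval 1.71 to 1.76) and 1.39 in pup 1 (1.37 to 1.40). Mir23b exceeded Mir23a 1.62-fold in pup 3 (1.60 to 1.64) and 1.25-fold in pup 1 (1.23 to 1.26). Mir27b exceeded Mir27a 8.82-fold in pup 3 (8.08 to 9.65) and 7.81-fold in pup 1 (7.35 to 8.30). Mir3074-1 had 0.846 of the count of Mir24-2 in pup 3 (0.754 to 0.949) and 0.632 in pup 1 (0.571 to 0.699). Thus the miR-23 and miR-27 pairs leaned to the 23b cluster, the miR-27 pair most, and the counts at the miR-24 loci leaned to the 23a cluster. The reads of Mir3074-1 lie on both strands and are not assigned to Mir24-1, so this last ratio does not compare miR-24 itself between the clusters.

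Divided by hairpin length, the miR-23 ratio was 1.64 in pup 3 and 1.26 in pup 1, and the miR-27 ratio was 10.5 and 9.31. The ratio of the miR-24 loci per length was 1.06 in pup 3 and 0.796 in pup 1, so its direction in pup 3 turned with that division. These ratios are between counts of the same library, so no choice of library scaling changes them. In log2 units, without division by length, the ratios averaged 0.51 ± 0.27 for miR-23, 3.05 ± 0.12 for miR-27 and -0.45 ± 0.30 for the miR-24 loci (SD, n = 2). Each of these undivided ratios kept its sign in both pups.

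Within each cluster the miR-23 hairpin had many more reads than its miR-27 neighbour. Mir23a had 53.7 times the reads of Mir27a in pup 3 (49.4 to 58.6) and 40.9 times in pup 1 (38.6 to 43.4). Mir23b had 9.86 times the reads of Mir27b in pup 3 (9.58 to 10.2) and 6.53 times in pup 1 (6.39 to 6.67). In the 23a cluster, Mir23a made up 96.1% of the reads in pup 3 and 95.7% in pup 1, Mir24-2 2.12% and 1.93%, and Mir27a 1.79% and 2.34%. In the 23b cluster, Mir23b made up 89.9% in pup 3 and 85.9% in pup 1, Mir27b 9.11% and 13.2%, and Mir3074-1 1.04% and 0.880%. Mir27b therefore held a larger share of its cluster than Mir27a in each pup.

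**Figure D2:**
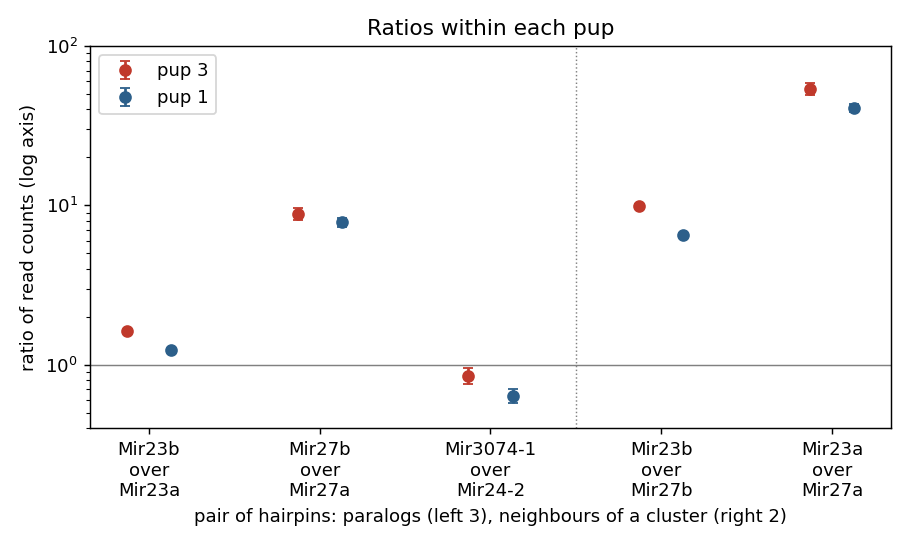
Ratio of read counts within each pup on a log axis, with pup 3 in red and pup 1 in blue, 95% exact binomial intervals for counting error and a grey line at a ratio of 1. Mir27b over Mir27a is 8.82 in pup 3 and 7.81 in pup 1, Mir23b over Mir23a is closer to 1 (1.62 and 1.25), and the neighbours on the right differ by 6.53-fold to 53.7-fold.

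Such unequal levels were common among clusters. With the mean CPM of the highest hairpin divided by that of the lowest, the 23b cluster spanned 92.1-fold and the 23a cluster 47.7-fold. Mir23b and Mir23a lead these spans, and Mir3074-1 and Mir24-2 end them. Reads that map to several places are left out of the counts, and the exact sequences of miR-24-3p and miR-3074-5p occur at both of these last loci. How far the reads left out set these spans, or those of other clusters, was not tested. Another 15 clusters held 3 or more hairpins with 10 or more counts in both pups. Each such hairpin lay within 10 kb of the next on the same strand, so a whole cluster could be longer than 10 kb. The spans in level of these 15 clusters ran from 2.74-fold to 4680-fold with a median of 74.3-fold. Of these, 7 were wider than the 23b cluster and 8 wider than the 23a cluster. These clusters held 3 to 31 such hairpins, and among the 6 others with exactly 3 detected hairpins the median was 23.5-fold. The 23b and 23a clusters thus sat in the middle of the range over all clusters and above that median, and this comparison has no test. The 23b cluster was taken by its members and does not meet the same-strand rule, since Mir3074-1 lies on the minus strand in GENCODE M21. With hairpins on either strand joined within 10 kb, 7 of 17 other clusters were wider than the 23b cluster and 9 wider than the 23a cluster.

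**Figure D3:**
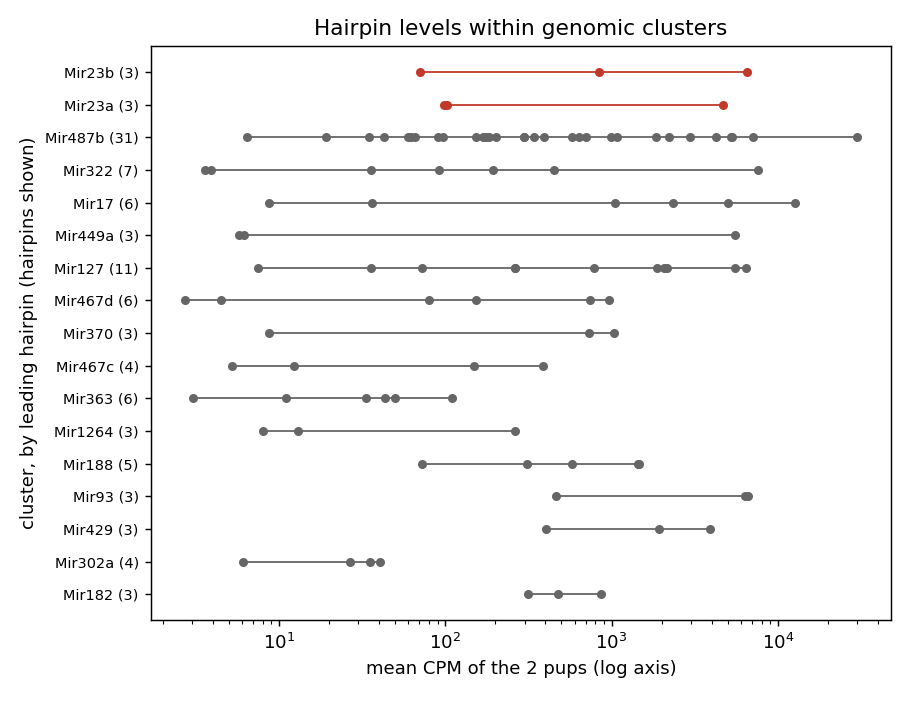
Mean CPM of the 2 pups on a log axis for each hairpin with 10 or more counts in both, with a row per genomic cluster named by its leading hairpin and the number of hairpins shown. The rows in red are the 23b cluster (92.1-fold from Mir3074-1 to Mir23b) and the 23a cluster (47.7-fold), and the grey rows are 15 other clusters.

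Between the pups, the miR-27 hairpins differed most, being lower in pup 3 in both clusters. With TMM scaling, which sets the typical gene equal between libraries, Mir27a stood in pup 3 at 0.620 of its pup 1 level (log2 ratio -0.69, 95% exact binomial interval -0.84 to -0.54) and Mir27b at 0.700 (-0.51, -0.56 to -0.46). Mir23a was lower at 0.813 (-0.30, -0.32 to -0.28), and Mir24-2 at 0.890 (-0.17, -0.31 to -0.02). Mir3074-1 was higher in pup 3 at 1.19 (0.25, 0.08 to 0.42). Mir23b was higher at 1.06 (0.08, 0.06 to 0.10), but lower at 0.921 (log2 ratio -0.12) with total counts as the scaling.

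The two-sided exact binomial test on the counts of the 2 libraries, with Benjamini-Hochberg adjustment over the 460 genes whose counts summed to 20 or more, called 4 of the 6 hairpins lower and 2 higher in pup 3. It called 63.0% of all genes tested, 32.8% lower and 30.2% higher, so a call is no mark of these hairpins. The weakest calls were those of Mir24-2 (adjusted p = 0.0333, exact binomial) and Mir3074-1 (adjusted p = 0.00535, exact binomial). The Mir24-2 call did not pass with DESeq2 size factors or when every gene with a count was tested. Scaled by total counts, 5 were called lower and none higher, against 44.8% and 21.3% of all genes, and Mir3074-1 was not called. Between these scalings the median over all tested genes shifted by -0.20 in log2 ratio, and relative to that shift the ratios are those given for TMM. The test compares 2 libraries and takes no account of the spread between animals.

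Most of these differences lay within the spread between the pups over the whole table. EdgeR's estimate of the biological coefficient of variation, over the 301 genes with 10 CPM or more in both pups, was 0.304, which corresponds to an SD of 0.62 for the log2 ratio of 2 pups. Of the 6 hairpins, 5 had a log2 ratio within that SD of 0, and Mir27a, the farthest, lay at 1.11 SD. The quartiles over the 310 genes that averaged at least 10 CPM, -0.36 and 0.35, also lay within it, so this is no mark of these hairpins. That SD comes from the same 2 libraries as the ratios. The median log2 ratio of the 6 was -0.23, beside -0.02 over all 460 genes tested. Among the 310 genes that averaged at least 10 CPM, 37 had a lower log2 ratio than Mir27a and 57 a lower one than Mir27b. Only Mir27a was lower by 1.5-fold or more with TMM scaling, as were 17.8% of all genes tested, and with total counts Mir27b passed that fold too, as did 25.4% of genes. None of the 6 was higher by 1.5-fold or more, against 18.5% of genes with TMM scaling and 12.6% with total counts.

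**Figure D4:**
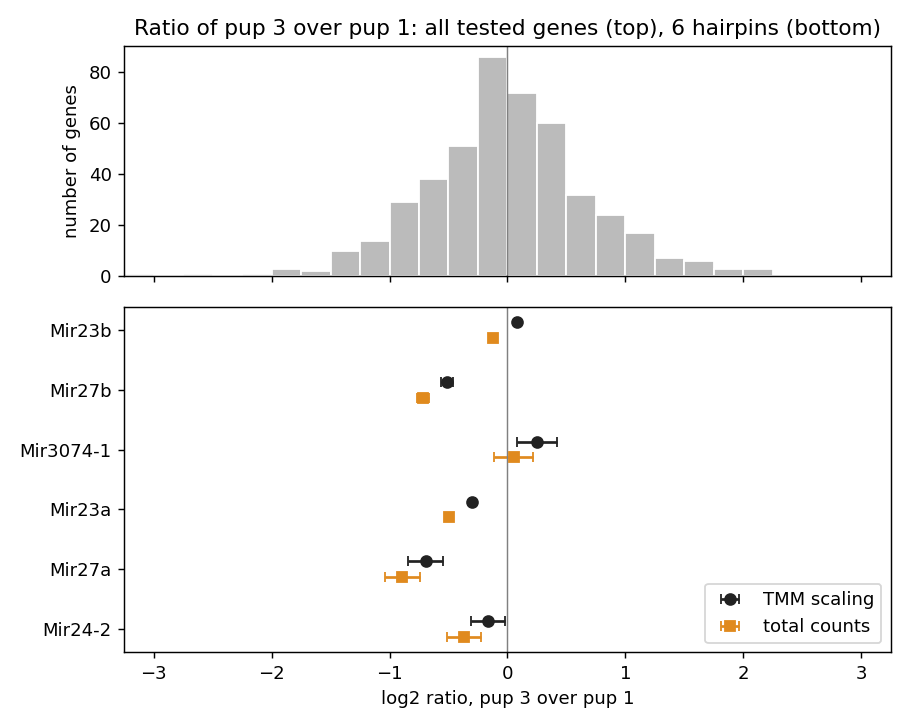
Log2 ratio of pup 3 over pup 1. The upper panel counts all 460 tested genes by their ratio with TMM scaling, and the lower panel gives the 6 hairpins with TMM scaling (black circles) and with total counts (orange squares), with 95% exact binomial intervals. Mir27a and Mir27b lie lowest, at -0.69 and -0.51 with TMM scaling, inside the spread of the genes above.

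The point estimates of the shifts followed the same order in both clusters, but not every step exceeded counting error. Relative to its miR-23 neighbour, the log2 ratio of pup 3 over pup 1 was 0.39 lower for Mir27a (difference -0.39) and 0.60 lower for Mir27b (difference -0.60). Relative to the same neighbours it was higher by 0.13 for Mir24-2 and by 0.17 for Mir3074-1, with counting intervals that overlapped between the pups. Mir23a had 41.9 to 49.0 times the reads of Mir24-2 in pup 3 and 46.5 to 52.8 times in pup 1. Mir23b had 79.8 to 94.5 times the reads of Mir3074-1 in pup 3 and 90.2 to 105.8 times in pup 1. Across paralogs, the log2 ratio of the 23b member exceeded that of the 23a member by 0.38 for miR-23, 0.18 for miR-27 and 0.42 for the miR-24 loci. The 23b cluster therefore held 63.4% of the members' reads in pup 3 and 58.1% in pup 1. For Mir27b over Mir27a the counting intervals overlapped between the pups, at 8.08 to 9.65 in pup 3 and 7.35 to 8.30 in pup 1. The differences in log2 ratio do not depend on library scaling, and with 1 library per pup they have no replicate check.

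MicroRNAs of the cell types a forebrain can hold are given here by the same test, which called 32.8% of all genes lower and 30.2% higher in pup 3 with TMM scaling, with a median log2 ratio of -0.02. With total counts these shares were 44.8% lower and 21.3% higher, with a median of -0.22. With 5 to 11 tested hairpins each, the lists are a description of these libraries and no result about a cell type. The endothelial list, led by Mir126a of endothelial cells and by Mir322, summed to 44925 CPM in pup 3 and 49395 CPM in pup 1, and the test called 3 of its 5 measured hairpins higher and none lower in pup 3 (median log2 ratio 0.15). With total counts it called 2 of them higher and 2 lower (median -0.05). The mural and mesenchymal list, led by Mir143 and Mir145a of smooth muscle, summed to 5343 CPM in pup 3 and 5972 CPM in pup 1, with 2 of 5 tested hairpins higher, none lower and a median of 0.14, against 1 higher, 2 lower and a median of -0.06 with total counts. Mir145b of that list had no count in either pup. The choroid plexus and multiciliated list, led by Mir449a and Mir204, summed to 8550 CPM in pup 3 and 11582 CPM in pup 1, with 2 of 5 lower and none higher (median 0.06, or -0.14 with total counts).

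Among the neuronal hairpins, led by Mir137 and Mir128-1, 5 of 11 were higher and 3 lower, and the median of 0.18 turned to -0.02 with total counts, where 5 were higher and 4 lower. The blood and leukocyte list, led by Mir142b and Mir451a, summed to 1128 CPM in pup 3 and 855 CPM in pup 1, with 5 of 6 higher and 1 lower (median 0.38), where 3 were higher and 1 lower with total counts (median 0.18). The Hox list, led by Mir10b and Mir10a, had 3 of 5 lower and 1 higher (median -0.72), and 3 lower and none higher with total counts. Mir196a-1 of that list had no count in either pup. The 6 miR-23, miR-27 and miR-24 hairpins had 4 lower and 2 higher in the same test. They were at 0.298 of the CPM of Mir126a in pup 3 and at 0.336 in pup 1, or 0.292 and 0.328 per hairpin length. The part of any of these cell types in the levels of the 6 hairpins was not tested.

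Reads on both strands were found at the Mir3074-1 locus and, apart from 4 reads of Mir24-2, at none of the other 5 hairpins. For Mir23b, Mir27b, Mir23a and Mir27a no read lay on the strand opposite to the gene in either pup. For Mir23b this was 0 of 48044 reads in pup 3 and 0 of 61399 in pup 1, which allows a share of up to 0.00624% and 0.00489%. For Mir27a it was 0 of 552 and 0 of 1205, which allows up to 0.543% and 0.249%. Mir24-2 had 0 of 655 opposite reads in pup 3 and 4 of 995 in pup 1 (0.402%, 95% Wilson interval 0.156 to 1.03).

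On the opposite strand of Mir3074-1 lay 92 of 554 reads in pup 3 (16.6%, 13.7 to 19.9) and 104 of 629 in pup 1 (16.5%, 13.8 to 19.6), a mean of 16.6% ± 0.0511 (SD, n = 2). In CPM, the sense strand of Mir3074-1 stood at 60.2 in pup 3 and 58.1 in pup 1, and the opposite strand at 12.0 and 11.5. Of the 433 genes with 10 or more counts in both pups, 383 had no opposite read in either, and 5, Mir3074-1 among them, had between 10% and 90% of their reads on the opposite strand in both. The other four of those had 35 or fewer reads in each pup, against 554 and 629 for Mir3074-1. Another 11 of the 433 genes had more than 90% of their reads on the opposite strand in both pups. In all, 16 genes, Mir3074-1 among them, had an opposite share at least that of Mir3074-1 in both. Over all assigned reads the opposite share was 1.91% in pup 3 and 2.69% in pup 1.

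The 2 strands of this locus carry different microRNAs. On one strand the products are miR-24-1-5p and miR-24-3p, and on the other miR-3074-5p. MiR-3074-5p runs antiparallel over the bases of miR-24-3p. The exact sequences of both also occur at the Mir24-2 locus, and reads that map to several places are left out of the counts. Which products the counted reads of either strand came from was not tested. Which strand the tables call sense for Mir3074-1 follows the annotation the authors used, and its identifier version there differs from that of GENCODE M21. Its reads are therefore given here by strand only and not assigned to Mir24-1 or Mir3074-1.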

How the data were processed

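Small RNA was sequenced from 1 forebrain of each of 2 newborn pups. The authors deposited whole-number read counts for each microRNA gene, on assembly mm10 with genome annotation M4, per the notes beside each table. Neither the aligner nor the counting tool is given in the sources used here. In all 1973 genes the first of the 3 count columns equals the sum of the other columns, read as the sense and the opposite strand. The 4 tallies that name no gene were left out of library sizes and tests. Reads tallied in no gene were 1.26% of the pup 3 library and 1.85% of the pup 1 library, and unmapped reads were 14.4% and 14.9%.

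Symbols and positions came from GENCODE M21 (GRCm38, which mm10 names) by identifier. Of 1973 identifiers 1894 matched, 79 of them with another version number, and 79 did not match. Sequences are from RefSeq, matched by symbol for all 6 members. No genome was searched, so exact matches are counted over annotated hairpins only.

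CPM used gene-assigned reads. The log2 ratio of pup 3 over pup 1 used counts with 0.5 added and TMM factors of edgeR 4.0.16 (0.933 for pup 3, 1.07 for pup 1). Calls used a two-sided exact binomial test with Benjamini-Hochberg adjustment at 0.05 over genes whose counts summed to 20 or more. It was run on simulated counts with counting error only. That check cannot show how the test behaves under the spread between animals. The spread came from estimateDisp with an intercept only. A single group offers no contrast, so edgeR tested none. DESeq2 1.42.0 gave alternative size factors. R 4.3.3, Python 3.11.15, scipy 1.17.1 and pandas 2.3.3 were used. The text names all members, the 2 genes nearest in level to each, and the leading genes of 6 cell type lists. The members and lists were chosen with earlier results of these data known.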

Additional observations from a re-analysis of the deposited data

How the results depend on the processing

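The order of the members and the spread between pups stayed within the limits set for a change under the alternatives run for each. So did the ratio between the clusters on the sense strand only and without the miR-24 hairpins. In log2 units that ratio was 0.79 in pup 3 alone and 0.47 in pup 1 alone. Its limit was the SD of the 2 pups, which leaving out either pup cannot exceed, so that step is no check. The strand share of Mir3074-1 had the same limit and no other alternative, so its stability was not tested. The summed level of the 6 hairpins, 12294 CPM, was 4979 per 1000000 reads of any kind and 16471 per 100 bases of hairpin, which are other units. Of the ratios between pups, that of Mir23b turned to -0.12 with total counts, under which 0 members were called higher. The span of the 23a cluster lay between 49.6 and 53.7 with either pup alone, against 47.7 on the mean. With hairpins joined within 3 kb, 4 of 13 other clusters were wider than the 23b cluster. With a shared stretch of 22 bases in place of 20, 2 rather than 6 members shared one with a hairpin elsewhere, namely Mir24-2 and Mir3074-1. Leaving the 10 most abundant genes out of the TMM factors, chosen after seeing the data, changed no call. No paired analysis was possible because there is 1 group. Depth limits the lower hairpins, with 552 to 1205 reads a pup, and not Mir23b or Mir23a.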
